A study of Homo sapiens with 4 samples.

Results

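The glucocorticoid receptor gene NR3C1 and 9 of its known target genes, TSC22D3, FKBP5, PER1, DUSP1, ZFP36, KLF9, SGK1, ZBTB16 and TXNIP, were followed in BLaER1 cells with and without knockdown of the long non-coding RNA HAL7. These genes were picked by name, with TSC22D3, which was higher after knockdown, as the starting point and the question whether other targets moved with it. Of the 10 genes, 9 were found among the 43450 rows of the expression table. No row had an Ensembl ID that the name tables pair with TXNIP, so TXNIP has no value here. BLaER1 is a human B cell leukaemia line with an inducible fusion of C/EBPα to the hormone-binding part of the oestrogen receptor. Control libraries and HAL7 knockdown libraries each number 2, labelled replicate 0 and replicate 1. For the knockdown, 3 antisense GapmeRs against HAL7 were put into the medium with no transfection agent. Both groups grew in RPMI with fetal bovine serum. The labels carry this same treatment text for all 4 samples, and what the controls were given, how long treatment lasted and whether the fusion protein was switched on are not stated there. Nothing in the labels says that replicates were separate cultures, so p-values measure only the spread between libraries, which may be technical.

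The glucocorticoid receptor is a nuclear receptor that waits in the cytosol in a complex with Hsp90, Hsp70 and immunophilins. When cortisol or a synthetic steroid such as dexamethasone binds, the receptor enters the nucleus, sits on DNA at palindromic response elements and raises a set of direct targets, while lowering many inflammatory genes. In leukaemic cells of the B and T lineages the same pathway can stop growth and cause cell death, which is why glucocorticoids are used against lymphoid leukaemia. TSC22D3 encodes GILZ, the glucocorticoid-induced leucine zipper protein. FKBP5 encodes an immunophilin that lowers the receptor's affinity for steroid. The RNA levels reported here measure neither steroid in the medium nor receptor activity.

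For TSC22D3, higher in both knockdown libraries, and for DUSP1 and SGK1, lower in both, 1 start-site window each is printed below. Each runs from 250 bases before to 50 bases after the annotated start. NR3C1, also lower in both, and ZFP36, also higher in both, were not picked for printing. The windows come from RefSeq (GRCh38.p14), are on the minus strand and are written 5′ to 3′. They lie at chrX:107717013-107717312, chr5:172771146-172771445 and chr6:134177812-134178111, and TSC22D3 and SGK1 have other annotated starts. Gene-level values do not tell the starts apart. Of 4 windows for TSC22D3 and 3 for SGK1, the printed window alone holds the element marked in it. Capitals mark a FOXO element (GTAAACA) in the TSC22D3 window, a cAMP element (TGACGTCA) followed by an E-box (CACGTG) in the DUSP1 window, and a single arm of the response element (TGTTCT) in the SGK1 window, each read on either strand.
TSC22D3: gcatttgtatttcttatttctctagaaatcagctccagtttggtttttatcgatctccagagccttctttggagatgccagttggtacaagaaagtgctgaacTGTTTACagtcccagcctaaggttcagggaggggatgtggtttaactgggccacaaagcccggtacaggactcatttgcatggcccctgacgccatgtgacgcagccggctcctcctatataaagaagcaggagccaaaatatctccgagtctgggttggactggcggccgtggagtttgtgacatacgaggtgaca
DUSP1: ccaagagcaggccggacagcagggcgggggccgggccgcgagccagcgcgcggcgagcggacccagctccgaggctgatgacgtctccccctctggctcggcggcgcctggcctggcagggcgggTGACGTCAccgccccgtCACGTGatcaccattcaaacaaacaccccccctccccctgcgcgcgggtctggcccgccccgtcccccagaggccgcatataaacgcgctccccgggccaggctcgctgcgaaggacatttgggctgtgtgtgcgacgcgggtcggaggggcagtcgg
SGK1: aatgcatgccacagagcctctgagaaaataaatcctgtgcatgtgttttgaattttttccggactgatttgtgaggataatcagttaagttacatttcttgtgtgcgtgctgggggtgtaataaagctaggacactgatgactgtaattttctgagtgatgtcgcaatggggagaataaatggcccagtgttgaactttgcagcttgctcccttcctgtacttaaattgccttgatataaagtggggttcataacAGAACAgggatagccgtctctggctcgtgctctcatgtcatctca

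Across the members, RefSeq gave 22 such windows for 9 genes, and none for ZBTB16. The full palindrome of the response element (AGAACA and TGTTCT set 3 bases apart) was in 0 of the 22 windows and in 1 of all 35116 windows. A relaxed form of the palindrome, with fewer fixed letters, was in 1 of the 22 (4.55%), a window of TXNIP, against 0.39% of all windows. A single arm, which is contained in the palindrome, was in 2 of the 22 (9.09%), 1 each of FKBP5 and SGK1, against 14.8% of all windows. A FOXO element was in 3 of the 22 (13.6%), in NR3C1, TSC22D3 and TXNIP, against 3.42% of all windows. The E-box was in 3 (13.6%), in FKBP5, PER1 and DUSP1, against 7.26%, and the cAMP element in 1, that of DUSP1, against 1.85%. Windows of 1 gene can overlap, and a match describes the letters only. Sequence outside the windows was not searched, so these counts do not show whether a gene has a response element elsewhere.

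HAL7, the targeted gene, was listed at 0.726 and 0.613 FPKM in control replicates 0 and 1 and at 0.475 and 0.347 FPKM in knockdown replicates 0 and 1. FPKM counts fragments relative to transcript length and to all mapped fragments of the library. HAL7, annotated as an antisense gene on chromosome X (71183559 to 71198175 on GRCh38, minus strand), was lower in both knockdown libraries, with a ratio of 0.614 and a limma adjusted p of 0.32. Whether reads were counted by strand is not given in the labels. Between 12902 and 12974 genes per library reached 1 FPKM, and depth read from the steps of low values was 1.59 to 2.11 times that of control replicate 0 in the other libraries. Control replicate 0 stood somewhat apart, with Pearson correlations of 0.985 to 0.990 across genes with the other libraries, which correlated at 0.993 to 0.995 among themselves. Without it the log2 change was 0.33 for TSC22D3, -0.21 for NR3C1 and -0.32 for SGK1. All 10 B lineage markers checked were at 1 FPKM or more in every library, among them DNTT at 1392 to 1478 FPKM. Of the 9 macrophage markers found, 2 were, CSF1R and CD68, with the sum over the list at 38.5 to 39.5 FPKM in the controls and 36.6 to 40.3 FPKM after knockdown, and CD14 and LYZ were under 1 FPKM in every library. All 8 T cell markers were under 1 FPKM. Of 6 granulocyte markers 1 reached it, CSF3R, and the list summed to 5.21 and 5.28 FPKM in the controls and 4.91 and 3.81 FPKM after knockdown. Of 6 erythroid and platelet markers 2 did, GP9 and ITGA2B, and the list summed to 5.96 and 6.14 FPKM in the controls and 4.92 and 4.3 FPKM after knockdown, with 3 of the 6 at 0 in every library. The part of these cell types in the results was not tested. In bulk RNA, fewer cells of a type and less RNA per cell cannot be told apart.

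TSC22D3 had the largest positive change of the members, at a ratio of 1.28, and the other targets lay on both sides of 0. Of the 7 other targets found, 3 had a higher mean after knockdown, by at most 1.05 times, and 4 a lower one. The near-absent ZBTB16 is among those 4. The 6 other targets averaging 1 FPKM or more split into 3 higher and 3 lower. The receptor gene itself and SGK1 were lower in both knockdown libraries. In the limma fit over 12936 genes, on log2(FPKM + 1), 0 of the 9 members passed an adjusted p of 0.05, TSC22D3 included, where 4 genes (0.0309%) passed over all, 1 higher (0.00773%) and 3 lower (0.0232%). At an unadjusted limma p under 0.05 there were 2 members, TSC22D3 on the higher side and SGK1 on the lower, where 16.6% of all genes reached that. The members were chosen with results of this contrast known, so their values are given as a description and nothing is read from these counts.

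**Figure D1:**
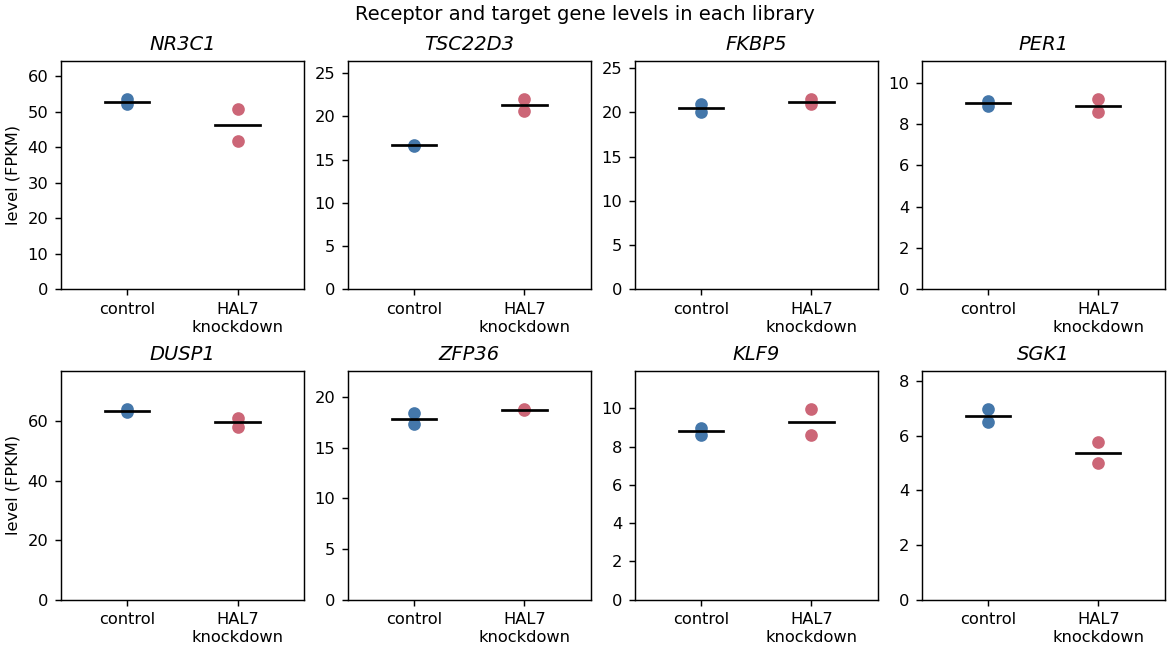
Level in FPKM (vertical axis, from 0) of the receptor gene and 7 targets in each of the 2 control libraries (blue) and 2 HAL7 knockdown libraries (red), with the mean of each group as a line. TSC22D3 has both knockdown libraries, at 20.6 and 22.0, above both controls, at 16.6 and 16.7, and SGK1 and NR3C1 have them below.

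TSC22D3 (ENSG00000157514.11, chromosome X, 107713221 to 107777342 on GRCh38, minus strand) was listed at 16.6 and 16.7 FPKM in control replicates 0 and 1 and at 20.6 and 22.0 FPKM in knockdown replicates 0 and 1. Both knockdown libraries lay above both controls. The control mean was 16.6 ± 0.0821 and the knockdown mean 21.3 ± 0.986 FPKM (SD, n = 2 each). Their ratio was 1.28 and the log2 change was 0.34 ± 0.06 (SE). Of the 12936 genes tested, 171 (1.32%) had a larger positive log2 change. TSC22D3 was already known to be higher when it was made the starting point, so this rank is a description only. Leaving out 1 library at a time gave 0.29 to 0.38.

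NR3C1, the receptor gene (ENSG00000113580.9, chromosome 5, 143277931 to 143435512, minus strand), was listed at 52.1 and 53.6 FPKM in the controls and at 50.7 and 41.9 FPKM in knockdown replicates 0 and 1. Both knockdown values were below both controls, and most of the gap lay in replicate 1. The ratio of means was 0.876 and the log2 change -0.19 ± 0.09 (SE), which became -0.06 without knockdown replicate 1 and -0.33 without knockdown replicate 0.

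SGK1 encodes a serum- and glucocorticoid-regulated kinase related to AKT (ENSG00000118515.7, chromosome 6, 134169246 to 134318112, minus strand). It was listed at 6.50 and 6.98 FPKM in the controls and at 5.78 and 5.0 FPKM after knockdown, the opposite direction to TSC22D3. The groups did not overlap, the ratio was 0.80, and the log2 change was -0.28 ± 0.08 (SE). Of the genes tested, 386 (2.98%) had a more negative log2 change than SGK1. Without knockdown replicate 1 it was -0.19.

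FKBP5, whose product feeds back on the receptor and which is among the most used readouts of receptor activity, was listed at 21.0 and 20 FPKM in the controls and at 20.9 and 21.5 FPKM after knockdown (chromosome 6, 35573585 to 35728583, minus strand). The groups overlapped. The means, 20.5 ± 0.737 and 21.2 ± 0.424 FPKM (SD, n = 2 each), differed by less than 1 SD of the controls, with a ratio of 1.04 and a log2 change of 0.05 ± 0.06 (SE).

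PER1, a repressor in the circadian clock that steroid raises quickly in many cells, was listed at 8.87 and 9.13 FPKM in the controls and at 8.58 and 9.21 FPKM after knockdown, so that the controls lay inside the knockdown range. Its ratio was 0.988. KLF9, a zinc finger transcription factor gene, was listed at 8.98 and 8.60 FPKM in the controls and at 9.95 and 8.58 FPKM after knockdown. Only knockdown replicate 0 stood above the others. Its ratio was 1.05 and its log2 change 0.06 ± 0.08 (SE), which turned to -0.03 without knockdown replicate 0.

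DUSP1 and ZFP36 limit inflammatory signalling, the first as a phosphatase of MAP kinases and the second as a protein that destabilises mRNAs with AU-rich elements. DUSP1 was listed at 63.0 and 64.0 FPKM in the controls and at 61.1 and 58.1 FPKM after knockdown. Both knockdown values were lower, by little: the ratio was 0.939 and the log2 change -0.09 ± 0.05 (SE). ZFP36 was listed at 18.4 and 17.3 FPKM in the controls and at 18.8 and 18.7 FPKM after knockdown. Both knockdown values were higher, with a gap to the nearest control smaller than that between the controls, a ratio of 1.05 and a log2 change of 0.07 ± 0.06 (SE).

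ZBTB16, which encodes the zinc finger protein PLZF and responds strongly to steroid in many tissues, was near absent. It was listed at 0.0203 FPKM in control replicate 0, and the remaining 3 libraries had 0. It entered the fit as a member although its mean was under the minimum of 1 FPKM, and no fold is given for it. The other 8 members found passed that minimum.

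The groups did not overlap for 5 of the 9 members, against 50.3% of all genes tested. Of these, 2 of the 9 members, TSC22D3 and ZFP36, were higher in both knockdown libraries, against 22.5% of all genes tested. On the lower side were 3 of the 9, NR3C1, DUSP1 and SGK1, against 27.7% of all genes. The mean after knockdown was higher for 4 of the 9, against 47.0% of all genes. The median log2 change was -0.01 for the members and -0.01 for all genes. That member median is the value of ZBTB16, which was near absent. For the 8 members averaging 1 FPKM or more, 4 had a higher knockdown mean and the median was 0.02.

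**Figure D2:**
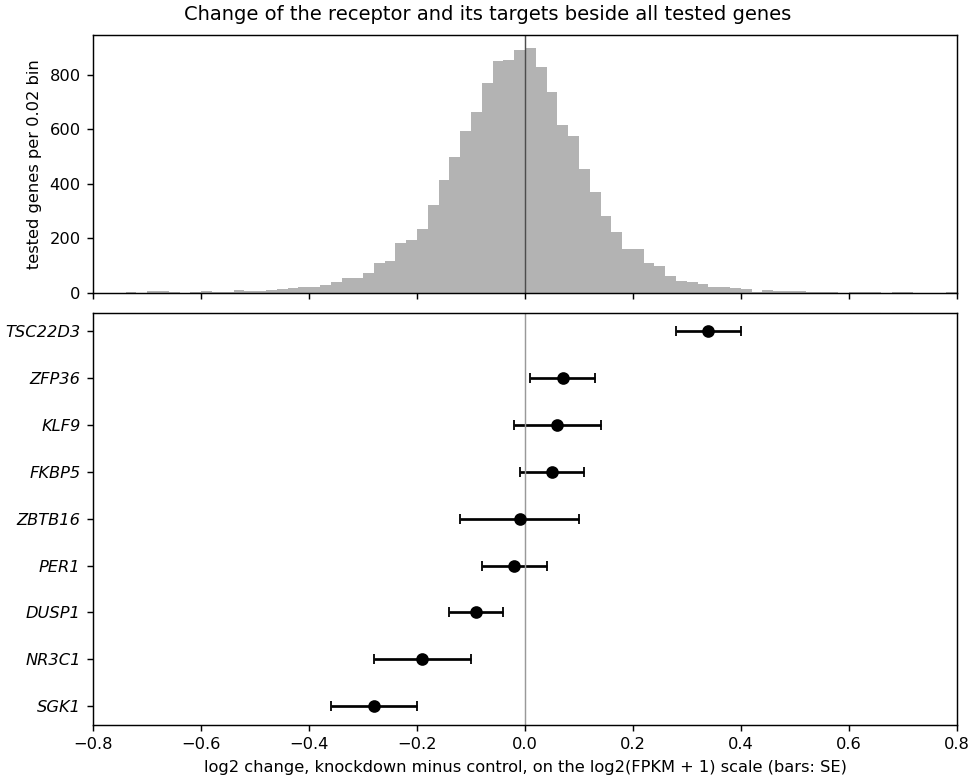
Upper panel: number of tested genes in each 0.02 bin of log2 change, knockdown minus control, with 41 genes beyond 0.8 in either direction not drawn. Lower panel: log2 change of the receptor gene and 8 targets on the same axis, with bars of 1 SE. TSC22D3 sits at 0.34, 7 members lie between -0.19 and 0.07, and SGK1 sits at -0.28.

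Ordered by mean level over the 4 libraries, which FPKM allows since it is per length, DUSP1 (61.6 FPKM) came before NR3C1 (49.6), FKBP5 (20.9), TSC22D3 (19.0), ZFP36 (18.3), KLF9 (9.03), PER1 (8.95), SGK1 (6.07) and ZBTB16 (0.00507). The library ranges of FKBP5 and TSC22D3 overlapped, as did those of TSC22D3 and ZFP36 and of KLF9 and PER1. In the controls TSC22D3 lay below FKBP5 and ZFP36, and after knockdown its values, 20.6 and 22.0, lay on either side of those of FKBP5, 20.9 and 21.5, and above those of ZFP36.

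Transcript GC content moved with the changes over all genes and is set here beside the members. Across 12500 tested genes, which are not independent replicates, Spearman's rho between GC content of the longest transcript and log2 change was -0.41. TSC22D3 has 52.8% GC, and the 802 genes within 1 percentage point of it had a median log2 change of -0.02. SGK1 and NR3C1, at 41.1% and 39.1% GC, were low where genes of like GC had a median of 0.05 in each case. With the GC trend removed, TSC22D3 stood at 0.37, SGK1 at -0.32 and NR3C1 at -0.25, each farther from 0 than before. PER1, at 62.7% GC, turned from -0.02 to 0.07. FKBP5 went from 0.05 to 0.01, DUSP1 from -0.09 to -0.05 and ZFP36 from 0.07 to 0.12, and KLF9 stayed at 0.06.

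**Figure D3:**
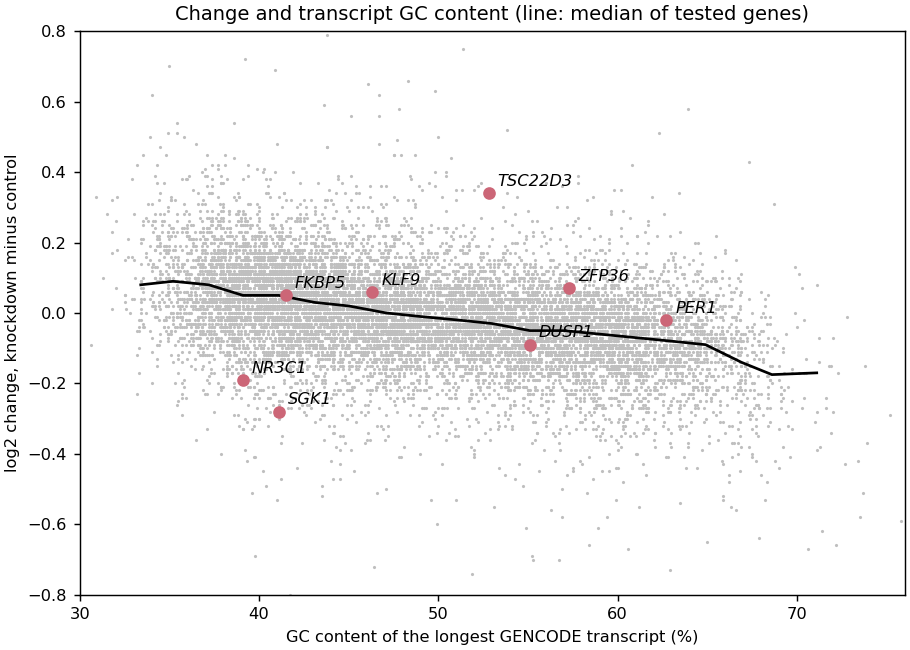
Log2 change, knockdown minus control, against GC content in percent of the longest GENCODE transcript, for the tested genes (grey; the vertical axis stops at 0.8 in either direction) and 8 members (red), with the median of tested genes as a line. The line falls from left to right, TSC22D3 lies above it and NR3C1 and SGK1 lie below it.

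Other genes of the pathway were described from lists, and in each of these lists 0 genes passed limma's adjusted p of 0.05 over all genes. Some genes are in several lists, so counts from different lists are not independent. Among genes known to be raised by glucocorticoid, members left out, 59 of 60 were found and 35 tested. Their knockdown mean was higher in 16 and lower in 19, the median log2 change was -0.01, and an unadjusted limma p under 0.05 was reached by 3 on the higher side and 9 on the lower, against 7.25% and 9.36% of all genes. MT1X, a metal-binding metallothionein gene, was listed at 275 and 273 FPKM in the controls and at 231 and 207 FPKM after knockdown (limma adjusted p of 0.19). KLF6, a zinc finger factor gene, had 49.6 and 49.4 FPKM and then 43.6 and 38.9 FPKM (limma adjusted p of 0.20). IRS2, an adaptor of insulin signalling, had a ratio of 0.831, also at 0.20. IL7R, the abundant interleukin-7 receptor gene, stood at a ratio of 0.947. The range of the list ran from a log2 change of -0.32 to 0.50, and the highest was SLA, an adaptor that dampens antigen receptor signalling, named after its values were seen. SLA had 2.34 and 2.03 FPKM in the controls and 2.66 and 4.51 FPKM after knockdown, so its size rests on knockdown replicate 1.

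Of the inflammatory and growth genes that glucocorticoid is known to lower, 25 of 28 were found and only 7 were expressed enough to be tested. The knockdown mean was higher in 4 and lower in 3, with a median log2 change of 0.06, or -0.04 without knockdown replicate 1. CCND3, the cyclin D3 gene, had 435 and 436 FPKM in the controls and 390 FPKM in each knockdown library, at a limma adjusted p of 0.22. CDK6, a kinase that partners D cyclins, stood at a ratio of 0.908, TNF at 1.22 and MYC at 1.10. MYC overlapped between the groups. Without knockdown replicate 1 the log2 change of TNF went from 0.20 to 0.06 and that of MYC from 0.14 to 0.02.

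The chaperones that hold the receptor ready for steroid were all tested, 15 of 15, and 11 had a higher knockdown mean. The median log2 change was 0.04 against -0.01 for all genes, and 4 had an unadjusted limma p under 0.05, all on the higher side. Over all genes, 47.0% had a higher knockdown mean and 7.25% had such a p on the higher side. PTGES3, which encodes the Hsp90 co-chaperone p23, was listed at 130 and 106 FPKM in the controls and at 148 and 145 FPKM after knockdown (limma adjusted p of 0.22). HSP90AA1 and the Hsp40 gene DNAJA1 had ratios of 1.15 and 1.17, and HSPA8, of the Hsp70 family, 1.15. HSP90AB1, the most abundant of the list at 807 to 841 FPKM, had a ratio of 0.974. Without knockdown replicate 1, 5 of the 15 had a positive change, and without control replicate 0, 8 did. With the GC trend removed, 9 of the 15 had a positive change and the median was 0.08. Without knockdown replicate 1 the log2 change went from 0.22 to 0.11 for DNAJA1, from 0.20 to 0.09 for HSPA8 and from 0.20 to 0.12 for HSP90AA1. For PTGES3 it went from 0.32 to 0.17 without control replicate 1.

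Coregulators, which link the receptor to chromatin and the transcription machinery, were also all tested, 21 of 21. The knockdown mean was lower in 16, with a median log2 change of -0.07, and 3 had an unadjusted limma p under 0.05 on the lower side and 1 on the higher, 4 of 21 where 16.6% of all genes reached that p. Over all genes, 47.0% had a higher knockdown mean, against 5 of these 21. SMARCD1, a subunit of the SWI/SNF remodelling complex, had a ratio of 0.888, HDAC2, a histone deacetylase, 1.10, and TRIM28 0.983. With the GC trend removed, 12 of the 21 had a negative change.

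Receptors of the same family and enzymes of hormone supply were mostly silent, with 3 of 12 tested. NR3C2, the mineralocorticoid receptor gene, which also binds cortisol, was listed at 0.197 to 0.227 FPKM, and PGR at 0 in every library. ESR1 was listed at 1255 and 1187 FPKM in the controls and at 1349 and 1321 FPKM after knockdown, a ratio of 1.09 with a limma adjusted p of 0.34. The line's fusion gene carries part of ESR1, and its reads cannot be told apart from those of the endogenous gene. H6PD, which supplies cofactor for cortisol regeneration, had a ratio of 0.989.

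Immediate-early genes, which many stimuli raise within minutes and which share this behaviour with DUSP1, ZFP36, PER1 and SGK1, were tested in 15 of 24 cases. The knockdown mean was lower in 14 of the 15 and higher in 1, NR4A1, with a median log2 change of -0.08. At an unadjusted limma p under 0.05 there were 5, all on the lower side, where 9.36% of all genes were. A higher knockdown mean, found in 1 of the 15, was found in 47.0% of all genes. IER5 was listed at 18.0 and 19.4 FPKM in the controls and at 14.9 and 15.4 FPKM after knockdown (limma adjusted p of 0.19). The stress response genes GADD45B and PPP1R15A had ratios of 0.834 and 0.825, JUND, an AP-1 subunit, 0.795, and MCL1, a survival factor of the BCL2 family, 0.997. These genes are GC-rich, with a median of 58.8% against 48.6% for all genes, and with the GC trend removed 9 of the 15 had a negative change. With quantile normalization 12 of the 15 were negative, and without control replicate 1 it was 10 of the 15.

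**Figure D4:**
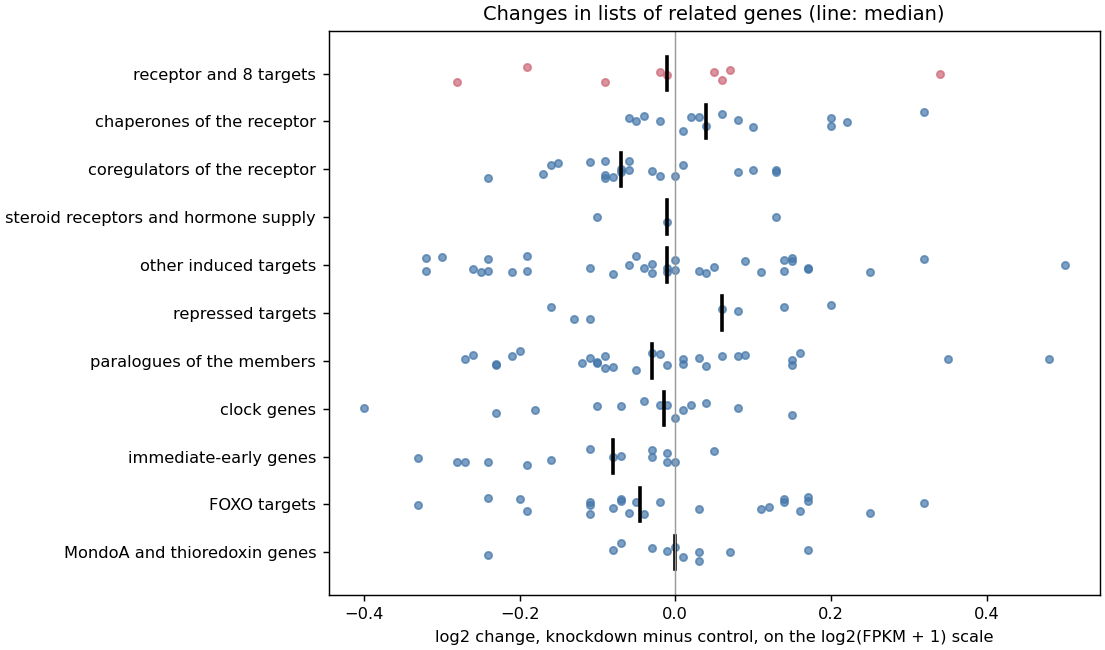
Log2 change, knockdown minus control, of each tested gene (points) in lists of the glucocorticoid pathway and related genes, with the median of each list as a line. The receptor and its 8 targets (red) spread from -0.28 to 0.34 around a median of -0.01, or 0.02 without the near-absent ZBTB16. The immediate-early list has a median of -0.08, or -0.02 with the GC trend removed.

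Paralogues of the members went both ways, with a higher knockdown mean in 12 of 29 tested, against 47.0% of all genes. The groups did not overlap for 5 on the higher side and 12 on the lower, against 22.5% and 27.7% of all genes. An unadjusted limma p under 0.05 was reached by 3 on the higher side and 5 on the lower, against 7.25% and 9.36%. TSC22D1, TSC22D2 and TSC22D4, the relatives of TSC22D3, had ratios of 0.991, 1.08 and 0.917. TSC22D4 was listed at 68.8 and 70.3 FPKM in the controls and at 64.1 and 63.4 FPKM after knockdown. TSC22D4 has 65.9% GC, and its log2 change went from -0.12 to -0.01 with the GC trend removed. The relatives of ZFP36 went opposite ways, with ZFP36L1 at a ratio of 1.12 and ZFP36L2 at 0.861, and with limma adjusted p of 0.27 and 0.22. PER2 and PER3 stood at 1.14 and 0.752. DUSP4, another MAP kinase phosphatase gene, had 6.45 and 6.49 FPKM in the controls and 7.74 and 9.42 FPKM after knockdown (limma adjusted p of 0.20). KLF16 and FKBP1A had ratios of 0.845 and 1.11. KLF16 has 67.8% GC, and its log2 change went from -0.23 to -0.10 with the GC trend removed. The α-arrestin genes ARRDC1, ARRDC2, ARRDC3 and ARRDC4, relatives of TXNIP, had ratios of 0.977, 0.868, 1.02 and 1.02.

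The clock genes around PER1 were tested in 14 of 18 cases, with a higher knockdown mean in 6 and a median log2 change of -0.01. BHLHE40, a repressor in the clock, was listed at 2.79 and 3.15 FPKM in the controls and at 2.38 and 1.69 FPKM after knockdown (limma adjusted p of 0.23). DBP, an output gene of the clock, had a ratio of 0.877, and the kinase genes CSNK1E and CSNK1D had 1.01 and 0.991.

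TSC22D3 is also known as a target of FOXO factors, which act downstream of PI3K and AKT. Of the list of FOXO factors and targets, 24 of 24 were tested, with a higher knockdown mean in 10, a median log2 change of -0.05 and an unadjusted limma p under 0.05 in 3 on the higher and 2 on the lower side, against 7.25% and 9.36% of all genes. SESN3, a sestrin gene, was listed at 2.79 and 3.0 FPKM in the controls and at 2.12 and 2.08 FPKM after knockdown (limma adjusted p of 0.19), the opposite direction to TSC22D3. CITED2, a transcriptional cofactor gene, had 12.9 and 11.7 FPKM in the controls and 14.1 and 15.5 FPKM after knockdown (limma adjusted p of 0.22). IRS2, IL7R and CITED2, among others of this list, are also in the list of genes raised by glucocorticoid. CAT, the catalase gene, had a ratio of 0.986. Among the glucose-sensing and thioredoxin genes related to TXNIP, 11 of 12 were tested and 5 had a higher knockdown mean. Without knockdown replicate 1, 3 of the 11 had a positive change. MLXIP, which encodes the glucose sensor MondoA, had a ratio of 0.843 with a limma adjusted p of 0.21. MLX, its partner, had a ratio of 0.945, PRDX1 1.12 and TXN 1.02. PRDX1 was listed at 1344 and 1296 FPKM in the controls and at 1380 and 1589 FPKM after knockdown, so its size rests mostly on knockdown replicate 1.

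The 5 genes whose log2 values over the 4 libraries, each centred on its own mean, lay nearest to those of TSC22D3 by Euclidean distance were PLEKHF2, RPS13P2, the unnamed gene ENSG00000249281.1, PRTFDC1 and MCM6, at distances of 0.0148 to 0.0478. PLEKHF2, an endosomal protein gene, was listed at 3.77 and 3.87 FPKM in the controls and at 4.92 and 5.26 FPKM after knockdown. MCM6, part of the helicase that opens DNA for replication, went from 28.3 and 27.8 FPKM in the controls to 33.4 and 36.0 FPKM. RPS13P2 is a pseudogene of a ribosomal protein gene and may share reads with its parent. None of the 5 is a member or is in the lists of related genes, and each had a limma adjusted p of 0.19. With 4 libraries, nearness in this measure is a description.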

How the data were processed

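Polyadenylated RNA of 4 BLaER1 libraries, 2 control and 2 HAL7 knockdown, was sequenced from 1 µg of total RNA each. The submitters' processing notes name Bowtie2 2.2.5, TopHat2 2.0.14, Cuffdiff 2.2.1 and the build hg19, with no roles. The authors deposited 1 table of values per gene and library, taken here as FPKM from its tracking_id header, those tools and its values; the table itself names no unit. Read counts were not used, so precision per library is unknown.

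Symbols came from Ensembl IDs through GENCODE 29 and name tables. Positions are on GRCh38, not the authors' build. Genes averaging 1 FPKM or more, plus HAL7 and the members, were fitted with limma 3.58.1 (R 4.3.3, variance trend) on log2(FPKM + 1), with Benjamini-Hochberg adjustment over 12936 genes and a threshold of 0.05. Fold changes on this scale understate the change of low genes. With 2 libraries against 2, an exact two-sided permutation test cannot go below 0.333, and none was used. The procedure was run on simulated data with independent noise and added changes larger than those of the members. That run does not bear on changes of the members' size.

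The members and lists were chosen with earlier results of these data known. The text names HAL7, the members, the 3 tested genes of smallest p and the 2 of highest level in each list, the relatives of TSC22D3, ZFP36, PER1 and TXNIP, and the 5 nearest profiles to TSC22D3. SLA, NR4A1, NR3C2 and PGR were named after their values were seen. A few genes that the rule names are not reported here. Alternatives covered the pseudocount, the filter, normalization, GC content, a replicate block and leaving out each library.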

Additional observations from a re-analysis of the deposited data

How the results depend on the processing

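The number of genes called over all tested genes was 4. It was 2 with a pseudocount of 0.1, 0 with no filter on low values (limma, 28016 genes, 3002 at an unadjusted p under 0.05), 1 with a mean of at least 5 FPKM, 11 to 22 when a library was left out, and 2149 at an unadjusted p of 0.05. Leaving out a library leaves an arm with 1 sample, which is assumed to vary like the other group. With a replicate block it was 19. The replicate numbers share only a number: the deviations of same-numbered libraries correlated at 0.122 across 12936 genes, over 2 pairs, and the block called 0 members and left TSC22D3 at 0.34. The cause of these differences was not tested. Members called stayed at 0 under all 14 alternative fits. Members with a positive log2 change numbered 4. With the GC trend removed they numbered 6, among them ZBTB16 at 0.00. Without control replicate 1 they numbered 5, among them PER1 at 0.00. NR3C1, TSC22D3, FKBP5, DUSP1, ZFP36 and SGK1 kept their sign in all 14 alternatives, TSC22D3 from 0.28 to 0.38 on the log2 scale, and PER1 did in 11 and KLF9 in 13. HAL7 ranged from -0.60 to -0.07. HAL7 and ZBTB16 are listed under 1 FPKM, where few fragments lie behind a value.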
